A study of Mus musculus with 13 samples.

Results

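The genes described here build the replicative helicase and load it onto DNA: Mcm2, Mcm3, Mcm4, Mcm5, Mcm6 and Mcm7, the loading factors Cdc6 and Cdt1, and the activation factors Mcm10 and Gins1. They were chosen by name, as probe sets annotated to that symbol and no other, and the probe set with the highest mean stood for each gene. All 10 genes were measured, of 19938 genes with such a probe set and 35556 probe sets on the array. The samples were 13 arrays of whole liver from 14-day-old mice, in 5 groups. All but the untreated mice had received diethylnitrosamine (DEN), a liver carcinogen that damages DNA once hepatocytes activate it, by intraperitoneal injection of 20 mg/kg 24 hours earlier.

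N750F livers (5 arrays) carried the N750F mutation of the retinoblastoma protein RB, and the labels name the mutation alone, with no word on the other allele. Knockout livers (2 arrays) had both Rb1 alleles flanked by loxP sites and the albumin-Cre transgene, whose albumin promoter is active in hepatocytes; how far the gene was lost in the tissue was not measured. Heterozygous livers (2 arrays) had 1 functional and 1 floxed allele with Cre, and a second field of their labels reads LOH. Wild-type livers after DEN (2 arrays) carried floxed alleles without Cre. Untreated wild-type livers (2 arrays) came, per the series' design, from littermates given saline. Arrays are numbered as in the sample titles, so the heterozygous and the DEN-treated wild-type arrays are numbers 3 and 4.

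Before a cell can copy its DNA, the origin recognition complex, Cdc6 and Cdt1 load the ring-shaped helicase of Mcm2 to Mcm7 onto origins, a step called licensing. The ring is later switched on by kinases, Cdc45, the GINS complex (which contains Gins1) and Mcm10, and then unwinds DNA ahead of the replication fork. RB binds E2F transcription factors and restrains their target genes, among which are many licensing genes. Adult hepatocytes rarely divide, whereas the liver of a young mouse is still growing.

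Promoters are shown because RB acts through E2F at such sequences. RefSeq promoters (table build GRCm38.p6, 250 bases before to 50 after the start) were given for 8 of the 10 genes, 9 promoters in all since Mcm7 had 2 starts; Mcm4 and Gins1 had no entry. The E2F core was written as TTCCCGC or with one of the variants TTCGCGC or TTGCCGC or TTGGCGC, on either strand. It occurred in 7 of the 9 promoters, those of 6 genes, against 9.57% of all 32851 promoters of the same length in the table. The 250 bases upstream of the start are given 5′ to 3′ on the gene's strand, with E2F cores in capitals, for Mcm6 and Mcm7, for Cdc6 and, as an example without a core, for Mcm2. They lie at chr1:128359706-128359955 (minus strand) for Mcm6, chr5:138171884-138172133 (minus strand) for the first start of Mcm7, chr11:98907901-98908150 (plus strand) for Cdc6 and chr6:88898781-88899030 (minus strand) for Mcm2.
Mcm6: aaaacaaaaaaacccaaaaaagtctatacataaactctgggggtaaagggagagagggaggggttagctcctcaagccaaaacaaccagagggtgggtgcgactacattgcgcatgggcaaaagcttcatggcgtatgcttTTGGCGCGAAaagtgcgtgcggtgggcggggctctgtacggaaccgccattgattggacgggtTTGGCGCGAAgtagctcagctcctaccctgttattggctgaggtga
Mcm7: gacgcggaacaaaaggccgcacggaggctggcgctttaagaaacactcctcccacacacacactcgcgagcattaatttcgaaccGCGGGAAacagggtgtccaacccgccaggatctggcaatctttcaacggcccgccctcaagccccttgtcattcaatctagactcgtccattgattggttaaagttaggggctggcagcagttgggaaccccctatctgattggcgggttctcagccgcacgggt
Cdc6: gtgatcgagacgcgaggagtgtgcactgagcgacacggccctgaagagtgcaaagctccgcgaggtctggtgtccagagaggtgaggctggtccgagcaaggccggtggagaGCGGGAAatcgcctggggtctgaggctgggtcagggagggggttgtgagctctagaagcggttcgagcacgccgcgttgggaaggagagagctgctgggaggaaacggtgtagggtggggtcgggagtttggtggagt
Mcm2: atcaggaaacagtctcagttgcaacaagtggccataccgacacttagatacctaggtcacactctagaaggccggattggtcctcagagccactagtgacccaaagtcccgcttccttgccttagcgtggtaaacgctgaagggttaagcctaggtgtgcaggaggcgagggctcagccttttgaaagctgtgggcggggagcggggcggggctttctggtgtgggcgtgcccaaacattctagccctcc
In Mcm6, the matches upstream of the start came as overlapping pairs, TTGGCGC on the gene's strand with TTCGCGC on the opposite strand, beginning at positions -109 and -46, and a further TTCGCGC lay at position 25. Mcm7 had TTCCCGC on the opposite strand at -165, plus an overlapping TTCGCGC and opposite-strand TTGGCGC at 18 and 21; its second start had 1 match. Cdc6 had a single TTCCCGC on the opposite strand at -138. Mcm3 and Mcm5 had 3 matches each and Cdt1 had 2, while Mcm2 and Mcm10 had none. The CHR element, written TTTGAA or TTCGAA, occurred on either strand in 2 of the 9 promoters (Mcm2 and the first start of Mcm7), against 19.2% of all promoters. The CCAAT box occurred on either strand in 7 of 9, against 37.4%. The map of matches shows these positions; a match of letters is a description of the window and does not show binding.

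**Figure D1:**
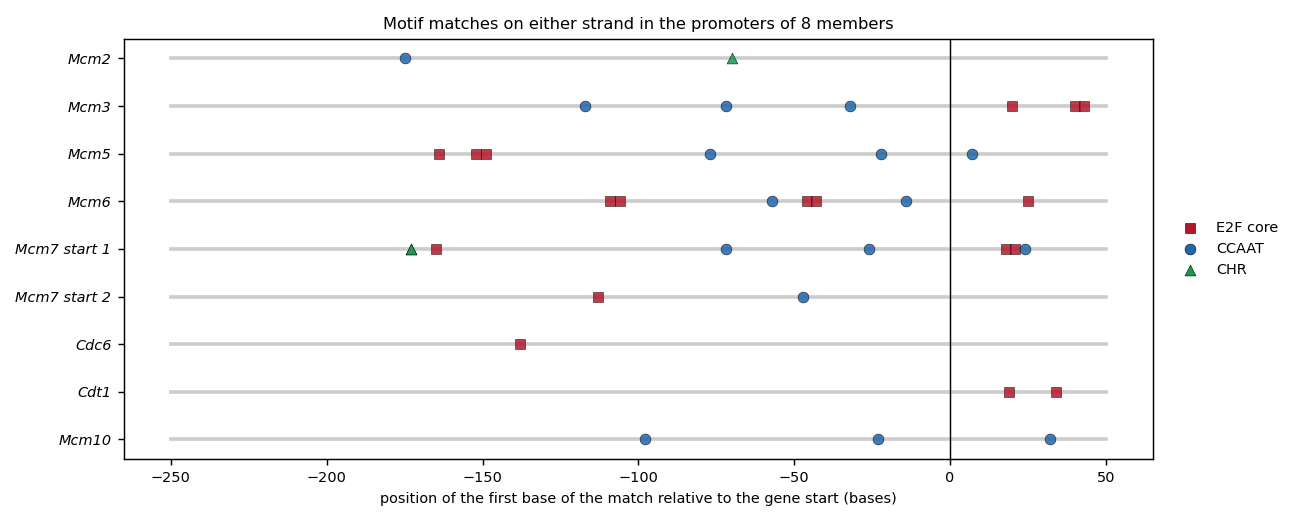
Matches to the E2F core, the CHR element and the CCAAT box in the promoters of 8 of the 10 genes, each drawn at its first base by distance in bases from the RefSeq start. The Mcm6 promoter holds 5 E2F core matches, whereas those of Mcm2 and Mcm10 hold none.

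Values are log2(quantile-normalised intensity + 16), and each is a probe set's own brightness. The raw array names fall into 2 runs: the 9 arrays of run 1 hold every knockout and untreated array, and the 4 arrays of run 2 hold 2 N750F, 1 heterozygous and 1 DEN-treated wild-type array. Replicate arrays correlated at 0.897 to 0.981, and nothing in the labels ties them to separate animals. Y-linked levels, given below, differ within the N750F and the untreated group, so each of these came from more than 1 animal. The p-values reflect array-to-array spread, which may still be technical in part. Rb1 itself read 8.23, 7.82, 8.43, 8.06 and 7.93 in N750F livers, 7.92 and 6.57 in knockout livers, 7.92 and 7.62 in heterozygous livers, 8.04 and 8.01 in DEN-treated wild-type livers and 7.27 and 7.15 in untreated livers; where its probe set lies relative to the floxed exon is not known, so these levels do not check the labels. Knockout array 2 stood apart: its 10 skeletal muscle markers averaged 8.28, against 5.72 to 6.02 on every other array, and 7 of the 10 were highest there. Hepatocyte markers (7 measured, mean 11.6 to 12.0 per array) were high throughout. Y-linked levels were high in both knockout and both heterozygous livers, in 1 of 5 N750F livers, in neither DEN-treated wild-type liver and in 1 of 2 untreated livers (8.91 to 9.45, against 4.44 to 4.61 on the other arrays), so sex moved with genotype. In whole tissue, fewer cells of a type and less RNA per cell cannot be told apart.

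Several of these genes read low, so each level was set against 1190 odorant and vomeronasal receptor genes, which liver is not expected to express. Their 95th percentile was 7.18 in N750F livers, 7.37 in knockout, 7.30 in heterozygous, 7.47 in DEN-treated wild-type and 7.50 in untreated livers, and their median lay between 5.63 and 5.77. Probe sets differ in affinity, so this percentile is an approximate edge of background. The group means of Mcm2, Mcm5, Cdc6, Cdt1 and Mcm10 lay below it in all 5 groups. Those of Mcm3, Mcm7 and Gins1 lay above it in N750F livers alone, where this percentile was lowest. Knockout Mcm3, at 7.34, fell just short of the 7.37 of its group. Mcm4 was above it in N750F, knockout and untreated livers, and Mcm6 was above it in every group. Of the 10 genes, 6 passed the filter on dim genes (mean over all arrays of at least 5.94): Mcm2, Mcm3, Mcm4, Mcm6, Mcm7 and Gins1. Mcm2 passed through its N750F and knockout readings, since its means in the other 3 groups were below 5.94. Counts over these 6 genes are therefore not counts over the whole set.

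**Figure D2:**
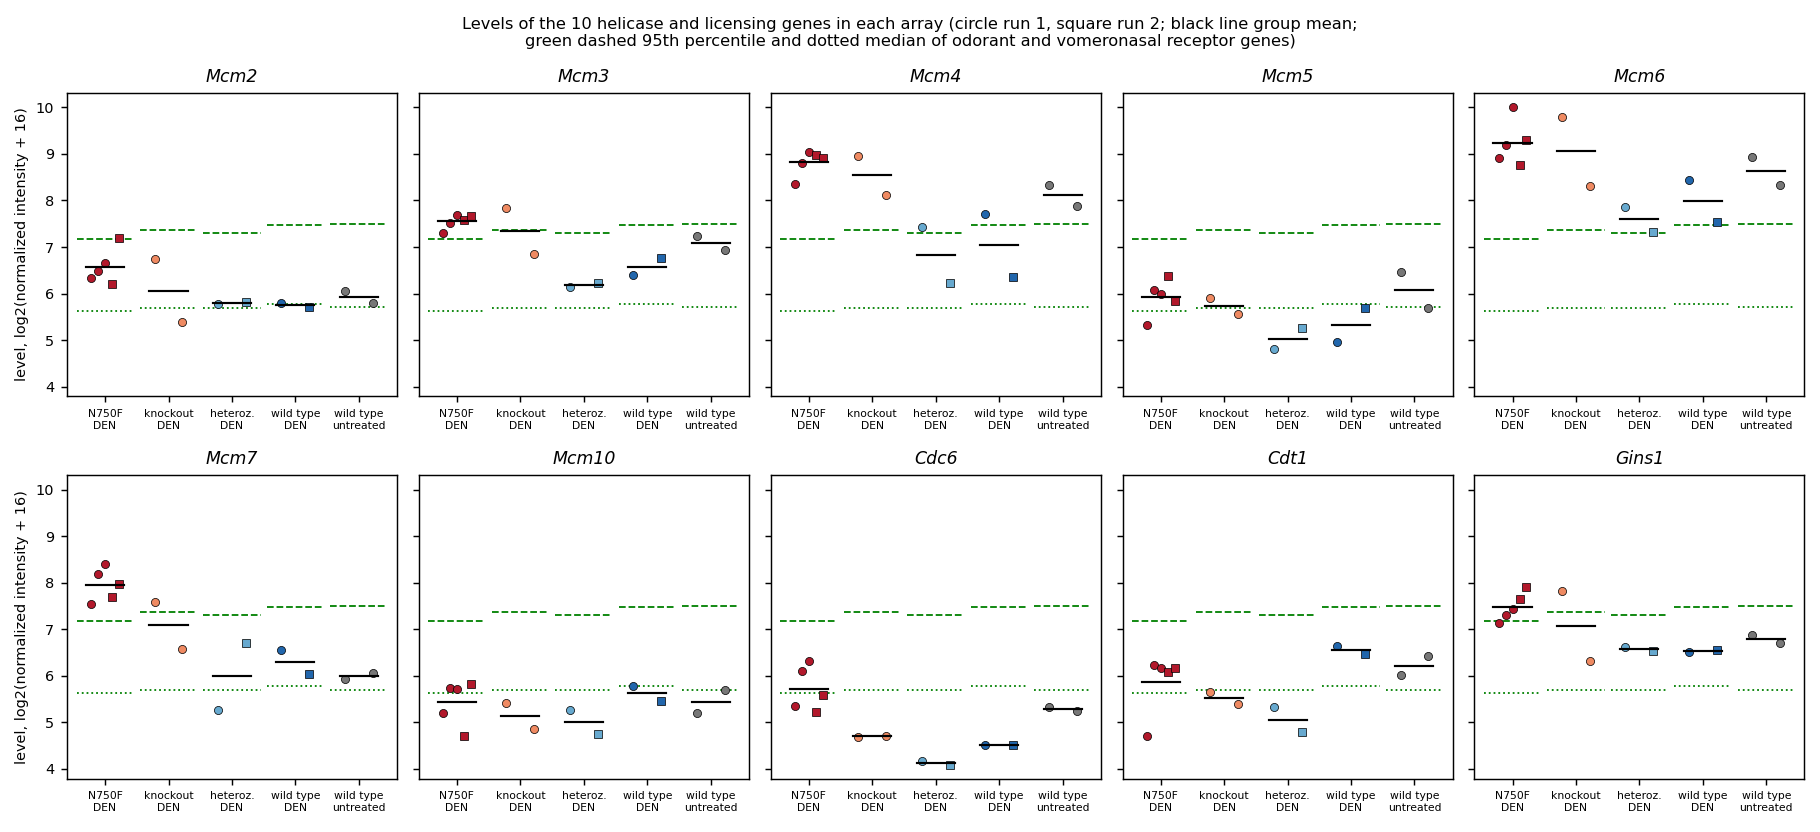
Level of each of the 10 genes on every array, as log2(quantile-normalised intensity + 16), by group, with the group mean as a black line and the 95th percentile (dashed) and median (dotted) of receptor genes in that group in green; circles are run 1 and squares run 2. Mcm6 lies above the dashed line in every group mean, and Mcm2, Mcm5, Cdc6, Cdt1 and Mcm10 lie below it in all 5.

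Mcm6, a subunit of the ring, was the brightest of these probe sets relative to background. It read 8.91, 9.19, 10.02, 8.76 and 9.31 in N750F livers, 9.79 and 8.32 in knockout livers, 7.86 and 7.32 in heterozygous livers, 8.43 and 7.53 in DEN-treated wild-type livers and 8.93 and 8.33 in untreated livers. The N750F arrays all lay above both heterozygous and both DEN-treated wild-type arrays, and they overlapped the knockout and untreated arrays. The group means were 9.24 ± 0.49 (SD, n = 5) for N750F, 9.06 ± 1.04 (n = 2) for knockout, 7.59 ± 0.38 (n = 2) for heterozygous, 7.98 ± 0.64 (n = 2) for DEN-treated wild-type and 8.63 ± 0.42 (n = 2) for untreated livers. Ranked from high to low, N750F livers came before knockout, untreated, DEN-treated wild-type and heterozygous livers, and each neighbour overlapped the next.

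Mcm4, which forms part of the catalytic core of the ring with Mcm6 and Mcm7, gave 8.36, 8.80, 9.03, 8.98 and 8.92 in N750F livers, 8.97 and 8.12 in knockout livers, 7.44 and 6.22 in heterozygous livers, 7.72 and 6.36 in DEN-treated wild-type livers and 8.33 and 7.89 in untreated livers. The N750F arrays exceeded all heterozygous, DEN-treated wild-type and untreated arrays. The order of group means was the one seen for Mcm6, and the only neighbours without overlap were DEN-treated (7.04 ± 0.96) and untreated (8.11 ± 0.31) wild-type livers. In both of the last-named DEN groups, heterozygous and wild type, the lower reading came from run 2.

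Mcm7 read 7.54, 8.18, 8.41, 7.69 and 7.97 in N750F livers and 7.59 and 6.58 in knockout livers. It read 5.26 and 6.71 in heterozygous livers, 6.56 and 6.03 in DEN-treated wild-type livers and 5.92 and 6.07 in untreated livers. Its mean was 6.29 ± 0.37 in DEN-treated and 5.99 ± 0.10 in untreated wild-type livers, the opposite order from Mcm4 and Mcm6, and these pairs overlapped. By group mean the order ran N750F, knockout, DEN-treated wild type, untreated and heterozygous. The knockout arrays lay above both DEN-treated wild-type arrays, and knockout array 1 reached into the N750F range.

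Mcm3 gave 7.29, 7.52, 7.69, 7.58 and 7.67 in N750F livers, 7.84 and 6.84 in knockout livers, 6.15 and 6.22 in heterozygous livers, 6.39 and 6.76 in DEN-treated wild-type livers and 7.24 and 6.93 in untreated livers. DEN-treated wild-type arrays lay below both untreated arrays, and heterozygous arrays below both of the DEN-treated wild-type pair, while N750F, knockout and untreated arrays overlapped in turn. Of the 6 ring genes it stayed closest to their mean over the 13 arrays, once each gene's own mean was subtracted (root mean square difference 0.17), whereas Mcm7 was the farthest (0.53).

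Mcm2 and Mcm5, the subunits on either side of the gate through which the ring opens, were both near background in every group. Mcm2 read 6.34, 6.48, 6.65, 6.20 and 7.19 in N750F livers, 6.74 and 5.39 in knockout livers, 5.78 and 5.83 in heterozygous livers, 5.80 and 5.71 in DEN-treated wild-type livers and 6.06 and 5.80 in untreated livers. All N750F arrays were above the heterozygous, DEN-treated wild-type and untreated arrays. Mcm5 ranged from 5.33 to 6.37 in N750F livers, from 5.55 to 5.91 in knockout livers, from 4.80 to 5.26 in heterozygous livers, from 4.96 to 5.70 in DEN-treated wild-type livers and from 5.69 to 6.45 in untreated livers, which had its highest mean.

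Of the loading factors, Cdc6, an ATPase that helps recruit the ring, read 5.34, 6.11, 6.31, 5.22 and 5.58 in N750F livers, 4.68 and 4.71 in knockout livers, 4.17 and 4.09 in heterozygous livers, 4.52 and 4.52 in DEN-treated wild-type livers and 5.32 and 5.24 in untreated livers. These are low values, with a mean at the 3.6th percentile of all genes. The 4 groups other than N750F did not overlap one another, but pairs of arrays separate often. Over all genes, DEN-treated wild-type arrays lay wholly above the untreated arrays for 17% and wholly below for 22.1%. The order was N750F, untreated, knockout, DEN-treated wild type and heterozygous, and the N750F and untreated arrays overlapped. Cdt1, which escorts the ring to the origin, read 4.71, 6.22, 6.18, 6.09 and 6.16 in N750F livers, 5.65 and 5.38 in knockout livers, 5.33 and 4.78 in heterozygous livers, 6.65 and 6.46 in DEN-treated wild-type livers and 6.01 and 6.42 in untreated livers. Its highest group was DEN-treated wild type, above every N750F array.

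Of the activation factors, Gins1 read 7.13, 7.32, 7.43, 7.65 and 7.91 in N750F livers, 7.82 and 6.33 in knockout livers, 6.61 and 6.54 in heterozygous livers, 6.52 and 6.55 in DEN-treated wild-type livers and 6.88 and 6.71 in untreated livers. The N750F arrays were above all arrays of the last 3 groups. Mcm10 ranged from 4.70 to 5.83 in N750F livers, from 4.85 to 5.40 in knockout livers, from 4.74 to 5.26 in heterozygous livers, from 5.46 to 5.78 in DEN-treated wild-type livers and from 5.19 to 5.69 in untreated livers. Its groups overlapped throughout, save that both DEN-treated wild-type arrays lay above both heterozygous and both knockout arrays. Across the 10 genes, N750F livers had the highest mean for 7, DEN-treated wild-type livers for Cdt1 and Mcm10, and untreated livers for Mcm5. Heterozygous livers had the lowest mean for 8, and DEN-treated wild-type livers for Mcm2 and Gins1. The share of all genes ranked in these ways was not computed, so these counts only describe the set.

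The 2 knockout arrays differed for most of these genes. Knockout array 1 was above a gene's own 13-array mean for 8 of the 10 genes and array 2 for 1. Array 2 was lower than array 1 by 1.50 for Gins1, 1.47 for Mcm6, 1.34 for Mcm2, 1.01 for Mcm7 and 1.00 for Mcm3, while Cdc6 differed by 0.02. Array 2 is also the array with the raised muscle markers, whose part in this gap was not tested. The N750F arrays were above the 13-array mean for 7, 10, 10, 9 and 10 of the 10 genes. The heterozygous arrays were above it for none. N750F arrays are 5 of the 13 that set this mean, and the share of all genes above it on each array was not computed.

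N750F livers were set against DEN-treated wild-type livers, both groups having received the carcinogen. Mcm4 and Mcm7 were higher in N750F livers, by 3.33-fold and 3.19-fold on the scale of intensity + 16. Both were near background in DEN-treated wild-type livers, and the added 16 understates changes of low genes, so these and the folds given next are not exact ratios of expression. In log2 terms the differences were 1.74 ± 0.36 for Mcm4 (SE, 95% interval 0.96 to 2.51, adjusted p = 0.0317) and 1.67 ± 0.38 for Mcm7 (0.86 to 2.48, adjusted p = 0.0449), by limma with Benjamini-Hochberg adjustment over 14953 genes. These were 2 of the 6 genes tested, where 1.13% of all genes were called higher (0.833% without the filter on dim genes, with the same number of calls among the 10). Over all 10 genes, the N750F arrays lay wholly above both DEN-treated wild-type arrays for 7 and wholly below for Cdt1, against 6.16% and 6.81% of all genes. Mcm6 (1.21 ± 0.38, adjusted p = 0.158), Mcm3 (0.99 ± 0.25, 0.0744), Gins1 (0.98 ± 0.32, 0.172) and Mcm2 (0.83 ± 0.33, 0.267) did not pass. The median difference of the 6 was 1.1, against -0.01 over all genes tested. Without the dim filter Cdc6 differed by 1.16 ± 0.26 with an adjusted p of 0.0503, and Cdt1, the exception in direction along with Mcm10, by -0.67 ± 0.36 (adjusted p = 0.43). Without N750F array 1, which reads low for Cdt1, that difference was -0.39 (adjusted p = 0.404).

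These calls rested on few arrays. Mcm4 lost its call without N750F array 2, 3, 4 or 5 (1.56 to 1.79, adjusted p 0.0544 to 0.0819) and without DEN-treated wild-type array 4, where the difference was 1.18 (adjusted p = 0.761). Mcm7 lost it without any 1 of the N750F, DEN-treated wild-type or untreated arrays (1.28 to 2.10, adjusted p 0.0512 to 0.806), and both lost it without the array run term and in run 1 alone, where Mcm4 differed by 0.99 and Mcm7 by 1.44. Leaving out knockout array 1, array 2 or both brought Mcm3 and Gins1 past the threshold as well, making 4 genes.

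**Figure D3:**
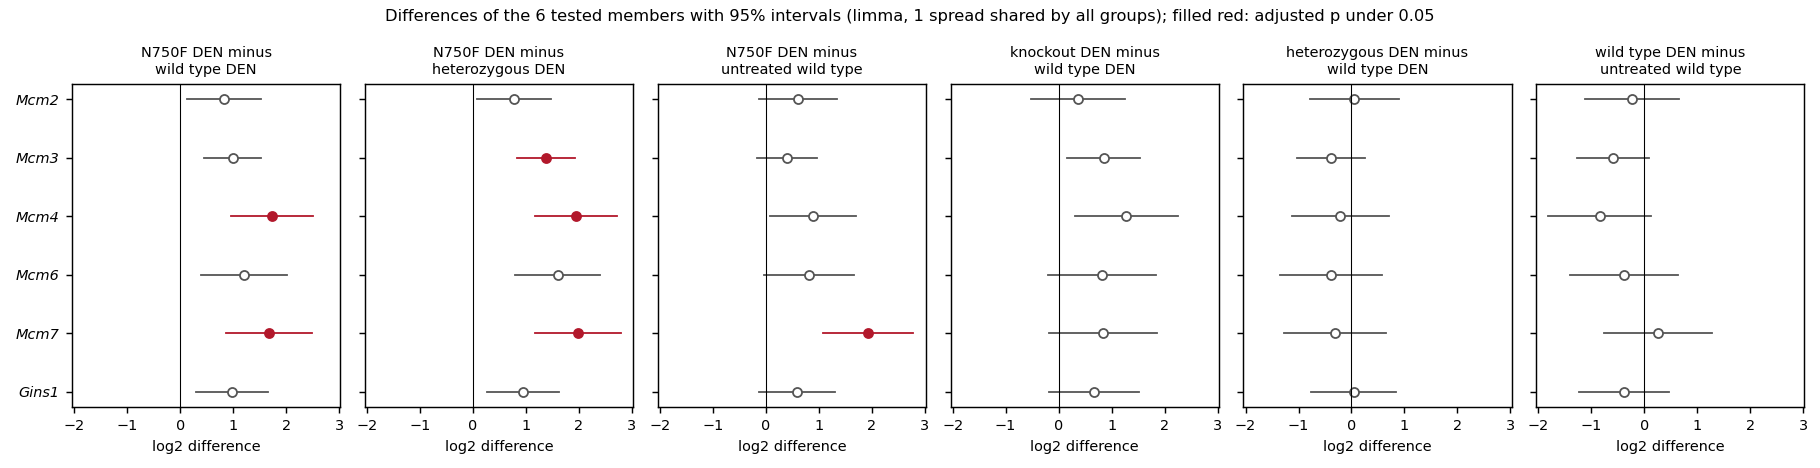
Difference in log2 level with its 95% interval for the 6 genes that passed the filter on dim genes, in 6 of the 10 comparisons, with calls at adjusted p under 0.05 filled in red. N750F livers minus DEN-treated wild-type livers gives 2 calls, N750F minus heterozygous 3 and N750F minus untreated 1.

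N750F livers differed from heterozygous livers in 3 of the 6 genes tested. Mcm7 was 3.95-fold, Mcm4 3.85-fold and Mcm3 2.61-fold higher in N750F livers on the scale of intensity + 16, with all 3 near background in heterozygous livers. The log2 differences were 1.98 ± 0.38 for Mcm7 (95% interval 1.17 to 2.79, adjusted p = 0.0157), 1.94 ± 0.36 for Mcm4 (1.17 to 2.72, 0.0127) and 1.38 ± 0.25 for Mcm3 (0.84 to 1.92, 0.0121). Over all genes tested 1.3% were called higher. Over all 10 genes the N750F arrays lay wholly above both heterozygous arrays for 8, against 6.22% of all genes. Mcm6 missed the threshold (1.60 ± 0.38, interval 0.78 to 2.41, adjusted p = 0.0514), as did Gins1 (0.94 ± 0.32, 0.233) and Mcm2 (0.78 ± 0.33, 0.384). The median of the 6 differences was 1.49, against -0.01 for all genes. Without the dim filter Cdc6 was called too, at 1.55 ± 0.26 (adjusted p = 0.00774), making 4 of 10 where 1.02% of all genes were called higher. All 10 genes had positive differences, as did 7274 of the 14953 genes that passed the filter. Cdt1 differed by 0.82 (adjusted p = 0.434), and by 1.11 (adjusted p = 0.0277) without N750F array 1.

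The heterozygous pair decided part of this. Without heterozygous array 3 the calls of Mcm7 (1.06, adjusted p = 0.275) and Mcm3 (1.45, 0.0879) were lost, and without array 4 those of Mcm4 (1.47, 0.436) and Mcm3 (1.32, 0.256). Mcm6 passed without N750F array 1 or either knockout array, and Gins1 without either knockout array. The count ran between 1 and 5 when single arrays were left out, with 5 without N750F array 1 or either knockout array. Each of these fits applied the dim filter anew, so the genes tested could change. Within run 1, where the heterozygous group has 1 array, no gene was called: Mcm7 differed by 2.71 (adjusted p = 0.0966), Mcm3 by 1.31 (0.38) and Mcm4 by 1.26 (0.453). With Y-linked expression as a term of the fit no gene was called; both heterozygous livers and 1 of 5 N750F livers had high Y-linked levels. Mcm4 then differed by 1.65 (adjusted p = 0.26) and Mcm7 by 1.68 (adjusted p = 0.289).

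Against untreated wild-type livers, where genotype and DEN changed together, N750F livers had higher Mcm7, by 3.80-fold on the scale of intensity + 16 (log2 1.93 ± 0.40, 95% interval 1.08 to 2.78, adjusted p = 0.0183), with the untreated level near background. It was 1 of 6 genes tested, with 3.87% of all genes called higher. Mcm4 (0.90 ± 0.38, adjusted p = 0.176) and Mcm6 (0.82 ± 0.40, 0.244) were not called, nor were Mcm2, Mcm3 and Gins1. The call was lost without N750F array 3 (1.74, adjusted p = 0.0582), untreated array 1 (1.86, 0.235) or untreated array 2 (2.01, 0.0703), and held within run 1 (1.99, 0.0345).

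Between N750F and knockout livers no gene of the 6 was called, with 0 of all genes called higher. The differences were 0.84 for Mcm7 (95% interval -0.01 to 1.69), 0.46 for Mcm2 and for Mcm4, 0.39 for Mcm6, 0.31 for Gins1 and 0.15 for Mcm3, with adjusted p between 0.417 and 0.86, and none passed at an unadjusted p under 0.05. Except for Mcm3 (-0.42 to 0.71), the intervals leave room for differences of more than 1 log2 unit. The comparison therefore does not show that the genotypes had equal levels. The sign turned for Mcm2 (-0.21), Mcm3 (-0.35), Mcm6 (-0.35) and Gins1 (-0.44) when knockout array 2 was left out. Without the dim filter Cdc6 differed by 1.14 ± 0.28 (adjusted p = 0.302), the N750F arrays lying above both knockout arrays.

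In knockout livers no gene of the 6 was called against DEN-treated wild-type, heterozygous or untreated livers, where 0.0468%, 0.221% and 0.0803% of all genes were called higher. Against DEN-treated wild-type livers Mcm4 differed by 1.27 (95% interval 0.30 to 2.24) and Mcm3 by 0.85 (0.17 to 1.53), both at an unadjusted p under 0.05, as were 5.04% of all genes on the higher side, with adjusted p of 0.445 or more. Against heterozygous livers 4 genes reached that unadjusted level, against 5.53% of all genes: Mcm4 (1.48, adjusted p = 0.256), Mcm3 (1.24, 0.169), Mcm6 (1.21, 0.416) and Mcm7 (1.14, 0.449). Mcm7 alone did so against untreated livers (1.09, adjusted p = 0.443), where 4.72% of all genes did. Without knockout array 2, Mcm3 was called against heterozygous livers (1.74, adjusted p = 0.0137), but that value rests on 1 knockout array, assumed to vary like the arrays of the other groups. Without knockout array 1, Mcm2 and Gins1 turned negative against all 3 groups, at -0.31 and -0.08 against DEN-treated wild-type livers.

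Between heterozygous and DEN-treated wild-type livers the differences ran from -0.39 (Mcm3 and Mcm6) to 0.05 (Mcm2, interval -0.79 to 0.89), with no call and no gene at an unadjusted p under 0.05; 0.00669% of all genes were called higher and 0% lower. Among the dim genes Cdt1 differed most, at -1.50 ± 0.43 without the filter (adjusted p = 0.629), both heterozygous arrays lying below both wild-type arrays. Against untreated livers, Mcm4 (-1.05, interval -2.02 to -0.08, adjusted p = 0.278) and Mcm3 (-0.98, -1.67 to -0.30, 0.147) had intervals below 0, which is an unadjusted p under 0.05. On the lower side 7.82% of all genes reached that unadjusted level. None of the 6 was called, while 0.729% of all genes were called lower and 0.675% higher.

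DEN itself was compared with no treatment in wild-type livers alone. No gene of the 6 was called, with 0.388% of all genes called lower and 0.301% higher, and none passed at an unadjusted p under 0.05. Mcm4 differed by -0.84 (95% interval -1.81 to 0.13), Mcm3 by -0.60, Mcm6 and Gins1 by -0.39, Mcm2 by -0.23 and Mcm7 by 0.25. Over all 10 genes, both DEN-treated arrays were below both untreated arrays for 4 and above them for 1, where 22.1% and 17% of all genes were separated in these directions. Mcm5, near background, differed by -0.96 ± 0.35 without the filter (adjusted p = 0.292).

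By group mean, proliferation markers ranked N750F, knockout, untreated, DEN-treated wild type and heterozygous livers from high to low. Mcm3, Mcm4 and Mcm6 had the same order. The other genes ranked otherwise, with Cdt1 and Mcm10 highest in DEN-treated wild-type livers. The mean of Mki67, Top2a, Pcna and Cdk1 was 9.35 to 9.87 in N750F livers, 8.12 to 9.63 in knockout livers, 7.21 in both heterozygous livers, 7.77 in both DEN-treated wild-type livers and 8.58 to 8.83 in untreated livers. Of these 4 markers, 3 were called higher in N750F than in DEN-treated wild-type livers, where 1.13% of all genes were. They were Mki67 (by 2.61), Top2a (by 2.63) and Cdk1 (by 1.39). All 4 were called higher in N750F than in heterozygous livers, where 1.3% of all genes were. Macrophage and Kupffer cell markers (10 measured) averaged 7.51 to 8.04 in N750F livers, 7.45 to 7.80 in knockout livers and 7.02 to 7.29 in heterozygous livers. They averaged 6.79 to 6.89 in DEN-treated wild-type livers and 7.71 to 8.10 in untreated livers. Of the 10, 2 (Vsig4 and Lyz2) were called higher in N750F than in DEN-treated wild-type livers, where 1.13% of all genes were. All 10 had positive differences in that comparison, with a median of 1.05. Over all genes tested, 7225 of 14953 were positive and the median was -0.01. Erythroid markers (7 measured) averaged 6.86 to 7.19 in N750F livers, 6.99 to 7.26 in knockout livers, 6.77 to 6.87 in heterozygous livers, 6.43 to 6.76 in DEN-treated wild-type livers and 7.17 to 7.27 in untreated livers, with no marker called between N750F and DEN-treated wild-type livers. The part of these cell populations in the licensing gene differences was not tested. No hepatocyte, neutrophil or B lymphocyte marker was called between N750F and DEN-treated wild-type livers, and the median hepatocyte marker difference was -0.02.

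**Figure D4:**
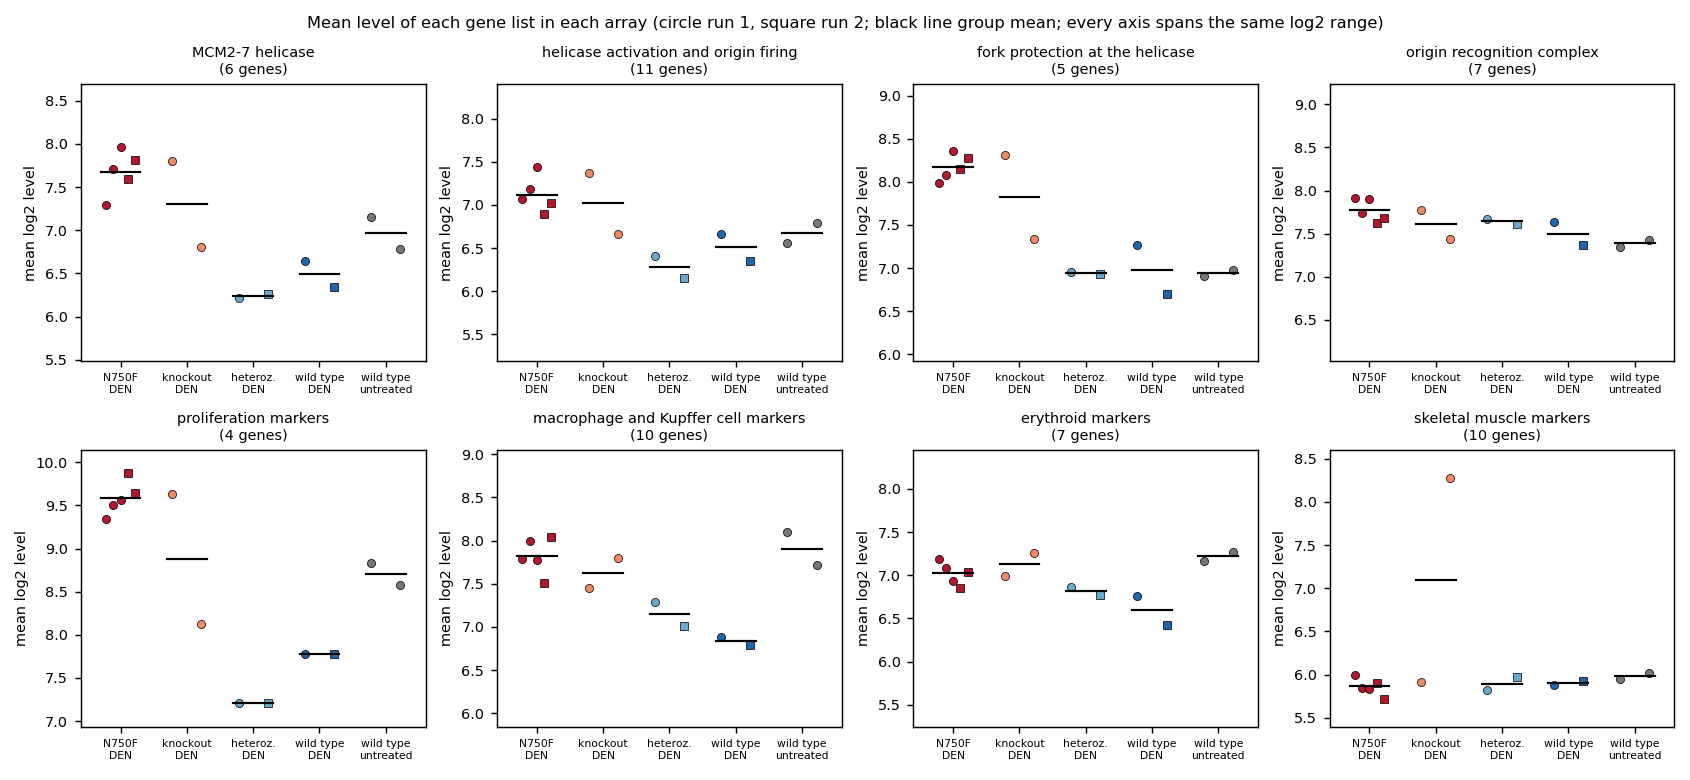
Mean level of the Mcm2 to Mcm7 probe sets, of 3 lists of other replication genes and of 4 marker lists on every array, as log2(quantile-normalised intensity + 16), by group; circles are run 1, squares run 2 and black lines group means. The Mcm2 to Mcm7 mean runs from 7.29 to 7.97 in N750F livers and from 6.21 to 6.26 in heterozygous livers, and the skeletal muscle mean of 8.28 marks knockout array 2.

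The wider machinery of licensing, origin firing and fork protection was covered by 33 genes, 30 of which passed the dim filter. Against DEN-treated wild-type livers, N750F livers had higher Wdhd1, which couples the helicase to DNA polymerase alpha, by 1.85 ± 0.26 (adjusted p = 0.00525), and higher Tipin, of the fork protection complex, by 1.29 ± 0.24 (0.0154). These were 2 of 30 genes called, where 1.13% of all genes were called higher, with a median difference of 0.52. Both belong to the list of 5 fork protection genes. Wdhd1 read 9.35, 9.45, 9.90, 9.46 and 9.72 in N750F livers, 9.38 and 8.60 in knockout livers, 7.47 and 7.79 in heterozygous livers, 7.96 and 7.49 in DEN-treated wild-type livers and 7.55 and 7.97 in untreated livers, so that no array of the last 3 groups reached the N750F or knockout range. No gene of the origin recognition complex (6 tested), of helicase activation and firing (11) or of geminin and the Cdt1-degrading ligases (5) was called in that comparison. Nor was any of the other MCM and MCM-binding genes (3 tested). The count of 2 ran from 0, without DEN-treated wild-type array 4 or in run 1 alone, to 5 without the knockout arrays.

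Against heterozygous livers 5 of the 30 were higher in N750F livers, where 1.3% of all genes were, with a median of 0.65. They were Clspn, the checkpoint mediator at the fork (2.24 ± 0.31, adjusted p = 0.00184), Wdhd1 (1.95 ± 0.26, 0.00184), the GINS subunit Gins2 (1.40 ± 0.24, 0.00836), the regulatory subunit of the Cdc7 kinase Dbf4 (1.53 ± 0.32, 0.0281) and Ticrr, needed for origin firing (1.48 ± 0.32, 0.0336). One gene was left without either heterozygous array, 3 without N750F array 2 or 3, and 2 with the Y-linked covariate. Against untreated livers 8 were higher, where 3.87% of all genes were: Wdhd1 (1.83), Rif1 (1.35), Orc3 (1.25), Timeless (1.22), Mcm9 (1.15), Donson (1.00), Tipin (0.97) and Cul4b (0.95), with adjusted p from 0.00687 to 0.0475. That count was 0 without untreated array 1, 1 without N750F array 3 and 2 without untreated array 2. No pathway gene was called lower in these comparisons, and none was called in the other 7.

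Genes outside these lists were ranked by how closely they followed the mean of Mcm2 to Mcm7 over the 13 arrays, each with its own mean subtracted. Among 13851 genes the 5 closest were Brip1 (root mean square difference 0.22), Omd (0.23), Ncapg2 (0.24), Ccne2 (0.24) and Rad51c (0.25), where the median gene differed by 0.70 and the Mcm2 to Mcm7 mean itself had an SD of 0.61. Brip1, a DNA helicase of the repair of crosslinks, read 7.68, 7.67, 7.87, 7.68 and 7.59 in N750F livers, 8.02 and 6.50 in knockout livers, 6.39 and 5.96 in heterozygous livers, 6.68 and 6.48 in DEN-treated wild-type livers and 7.27 and 7.12 in untreated livers. It shared the gap between the knockout arrays, and with array 2 left out the 5 genes ranked 1, 3, 6, 5 and 10.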

How the data were processed

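RNA of frozen liver was amplified, labelled and hybridised to 1 Affymetrix array per sample, 13 in all. Per the submitters' processing notes, RMA and Affymetrix Expression Console 1.1 were used; the deposited values are linear intensities (0.000427 to 17831), with array medians of 76.9 to 83.0 in run 1 and 48.2 to 73.3 in run 2. The number of arrays limits the precision.

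Of 35556 probe sets, 21789 had 1 gene symbol, 1621 several and 12146 none; 21698 of the single symbols matched the RefSeq table, which gave current names. Intensities were quantile-normalised and taken as log2(x + 16), with the highest-mean probe set per gene. Dim genes (mean under the 25th percentile) were not tested, which left 14953. One limma 3.58.1 model (R 4.3.3) held all 5 groups and the array run, with 7 residual degrees of freedom, and gave 10 comparisons with Benjamini-Hochberg adjustment over all genes; a call is an adjusted p under 0.05. Comparisons that share a group share its arrays. The fit was run on simulated data with planted changes. Those data had independent noise and no array run or sex effect, so they do not bear on the calls made here.

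All members are named, with pathway genes called in any comparison and the 5 nearest genes; the likeness ranking omitted Y-linked genes, Xist, small RNAs and predicted loci. Members and lists were chosen with earlier results of these data known. Alternatives changed the scaling, offset, filter, probe set rule, batch term, replicate block, sex covariate, array weights, trend and each array in turn.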

Additional observations from a re-analysis of the deposited data

Results flagged for a closer look

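Cdt1 in N750F array 1 stood apart from the other N750F arrays. It read 4.71, against 6.09 for the next lowest and 6.22 for the highest, so the gap took up 0.909 of the group's range. This was 1 of 10 groups of values examined, the 10 genes in N750F livers being the only ones with enough arrays, and chance marks about 1 in 20. Without this array Cdt1 in N750F minus DEN-treated wild type was -0.39 in place of -0.67, an alternative chosen after seeing the data. Cdt1 lies below the background percentile in every group.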

How the results depend on the processing

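Over 27 alternatives, 1500 of 1586 values for the 6 tested genes kept their direction and side of the threshold, 40 lost a call, 18 gained one and 28 changed sign; the causes were not tested. Most of these results were never calls: the 6 calls were held in 122 and lost in 40 of 162 values. The 2 calls of N750F minus DEN-treated wild type became 1 without scaling or with the Y-linked covariate, 0 with an offset of 1, without the array run term, in run 1 only or with the replicate block, and 4 with both knockout arrays left out, an alternative chosen after seeing the data; leaving out 1 array gave 0 to 4. The 3 calls of N750F minus heterozygous became 0 in run 1 only or with the Y-linked covariate, 1 with the replicate block and 5 without the knockout arrays, and 1 to 5 leaving out 1 array. The 1 call of N750F minus untreated became 0 with the replicate block and 0 to 1 leaving out 1 array. Knockout minus heterozygous gave 0 to 1. The other 6 comparisons stayed at 0 under every alternative run.

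Same-numbered arrays of different groups correlated, in their deviations from the group mean, at -0.131 to 0.452 in 12 pairs, over 0.1 in 7. In a group of 2 arrays 1 deviation mirrors the other, so pairs between such groups repeat the same value. That was 0.452 for heterozygous with DEN-treated wild type and -0.1 for untreated with knockout, so the 12 pairs are not separate observations. The pairs numbered 3 and 4 correlated at 0.27 to 0.452. Number 3 lies in run 1 and number 4 in run 2, so pairing and run cannot be told apart there. The numbers therefore neither establish nor exclude pairing. No-scaling and percentile-scaling fits moved the median of all genes by under 0.1.

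Values that changed sign under other settings were N750F minus knockout for Mcm6 with the replicate block (-0.008), and heterozygous minus DEN-treated wild type for Mcm2 in run 1 only (-0.015) and for Mcm4 (0.15) and Mcm7 (0.057) with the Y-linked covariate. Heterozygous minus untreated for Mcm7 became 0.023 with an offset of 50 and 0.18 with that covariate. Leaving out 1 array gave these ranges where the sign turned. N750F minus knockout ran from -0.21 to 1.14 for Mcm2, -0.35 to 0.64 for Mcm3, -0.35 to 1.12 for Mcm6 and -0.44 to 1.06 for Gins1. Knockout minus DEN-treated wild type ran from -0.31 to 1.03 for Mcm2 and -0.082 to 1.42 for Gins1. Knockout minus heterozygous ran from -0.36 to 0.98 for Mcm2 and -0.12 to 1.38 for Gins1. Knockout minus untreated ran from -0.54 to 0.81 for Mcm2, -0.25 to 0.75 for Mcm3, -0.30 to 1.17 for Mcm6 and -0.47 to 1.03 for Gins1. Heterozygous minus DEN-treated wild type ran from -0.071 to 0.17 for Mcm2, -0.78 to 0.37 for Mcm4, -1.18 to 0.57 for Mcm7 and -0.17 to 0.25 for Gins1. Mcm7 ran from -0.73 to 1.03 in heterozygous minus untreated and from -0.24 to 0.56 in DEN-treated minus untreated wild type.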
